A study of Mus musculus with 4 samples.

Results

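The 10 genes described here encode the cytoskeleton that sets neurons apart: *Tubb3*, *Dcx*, *Map2*, *Mapt*, *Map1b*, *Stmn2*, *Nefl*, *Nefm*, *Ina* and *Gap43*. They were chosen by name, as neuronal microtubule, neurofilament and growth cone genes, from the 55602 genes of the deposited gene table, and all 10 were found there. The cells were JB1, a male hybrid mouse ESC line from a JF1 mother and a C57BL/6 (B6) father, and a *Zfp57*-/- line made from it, so that each genotype is represented by a single line. WT and *Zfp57*-/- cells were differentiated without serum in DDM medium, with the hedgehog inhibitor cyclopamine (1 µM) from day 2 to day 10, and harvested as neural precursor cells at day 12. Total RNA of 2 cultures per genotype, which the submitters describe as biological duplicates, was sequenced after removal of ribosomal RNA, and the comparison asks how *Zfp57*-/- cells differ from WT cells after this neural differentiation.

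Microtubules are built from alpha- and beta-tubulin, and young neurons stabilise them with microtubule-associated proteins: doublecortin in migrating neurons, MAP2 in dendrites, tau in axons and MAP1B in growing axons. Neurofilaments are the intermediate filaments of axons and are assembled from light, medium and heavy chains together with alpha-internexin. Stathmins bind free tubulin and promote the disassembly of microtubules, and GAP43 is a membrane protein of growth cones. ZFP57 is a zinc finger protein that binds methylated imprinting control regions.

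Short stretches of promoter are shown for the members whose alleles responded differently to the genotype (*Tubb3* and *Ina*) and for the member with the largest fold change (*Dcx*). They come from RefSeq windows on GRCm38.p6, which reach 250 bases upstream of an annotated start. The set of windows used here covered 5 of the 10 genes, namely *Tubb3*, *Dcx*, *Map2*, *Map1b* and *Ina*. A gene missing from this set may still have a start annotated in RefSeq. Bases that lie in exons of the deposited gene models are left out. Capitals mark the motifs searched for on both strands. These were TGCCGC (a form of the ZFP57 recognition sequence), the E-boxes CAGATG and CAGCTG, the GC box GGGCGG and the TATA-type sequence TATAAA. The authors give the ZFP57 hexamer with T or G as its first base. The form with G was not searched for, so it stays in lower case and uncounted. It lies in the *Tubb3* stretch, on the other strand. No matches overlapped in these stretches, and capitals that read CCGCCC are GGGCGG on the other strand.
*Tubb3* (chr8:123411303-123411423, plus strand): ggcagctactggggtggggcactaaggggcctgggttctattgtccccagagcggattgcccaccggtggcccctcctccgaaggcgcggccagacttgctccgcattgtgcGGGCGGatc
*Ina* (chr19:47014431-47014680, plus strand): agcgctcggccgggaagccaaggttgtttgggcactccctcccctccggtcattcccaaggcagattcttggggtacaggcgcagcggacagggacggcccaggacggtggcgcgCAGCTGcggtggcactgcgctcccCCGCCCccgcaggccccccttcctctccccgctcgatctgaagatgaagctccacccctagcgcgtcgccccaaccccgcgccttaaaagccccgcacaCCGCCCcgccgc
*Dcx* (chrX:143933312-143933469, minus strand): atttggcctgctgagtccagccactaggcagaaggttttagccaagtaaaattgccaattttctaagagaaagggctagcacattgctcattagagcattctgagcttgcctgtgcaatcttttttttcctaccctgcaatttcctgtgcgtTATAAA

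Over the whole 250 bases, the GC content was 68% for *Tubb3*, 70.8% for *Ina*, 66.4% for *Map1b* and 81.2% for *Map2*, against a median of 52.4% over 32536 promoter windows. *Dcx* stood apart with 44.8% and 41.6% in its RefSeq windows. GGGCGG was found in the windows of *Tubb3*, *Ina*, *Map1b* and *Map2* and in 33.0% of all windows, and TATAAA was found in those of *Dcx* and *Map1b* and in 12.3% of all windows. TGCCGC was found once in the window of *Tubb3*, 101 to 96 bases upstream of its start and within a deposited exon, once in that of *Map2*, and in 8.75% of all windows. CAGATG was in the window of *Map1b* (14.4% of all) and CAGCTG in that of *Ina* (13.1% of all). These matches describe the letters of the windows and no binding was measured.

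The deposited counts summed to between 7663520 and 10337082 fragments per library. *Zfp57* had 392 and 249 counts in WT and 158 and 144 counts in *Zfp57*-/- cells. Because the counts cover the whole gene and the study's knockout is a deletion that leaves transcript to be detected outside it, this checks the labels only in part. The WT replicates differed from each other far more than counting error, with a sum of squared deviations per degree of freedom of 34.75 times counting noise, against 6.97 in *Zfp57*-/- cells. They differed by gene length, which is taken up for the members at the end. Defining neuron markers were present in WT cells, with *Elavl3* at 68.6 and 108 counts per 1000000 (CPM, scaled by edgeR's TMM factors) and *Elavl4* at 127 and 124 CPM.

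The neuronal cytoskeleton genes were far lower in *Zfp57*-/- cells. Of the 10 genes, 9 were lower past an adjusted p of 0.05 and 0 were higher (edgeR's quasi-likelihood test with Benjamini-Hochberg adjustment over 19995 genes). Over all genes tested, 14.6% were lower and 13% higher. The median log2 fold change of the 10 genes was -2.64, that of all genes tested was -0.01, and the summed level of the 10 genes was 4021 and 4687 CPM in WT against 686 and 644 CPM in *Zfp57*-/- cells. *Stmn2* was the gene that did not pass. In RNA from whole cultures, a lower share of neurons and less RNA of these genes per neuron cannot be told apart.

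**Figure D1:**
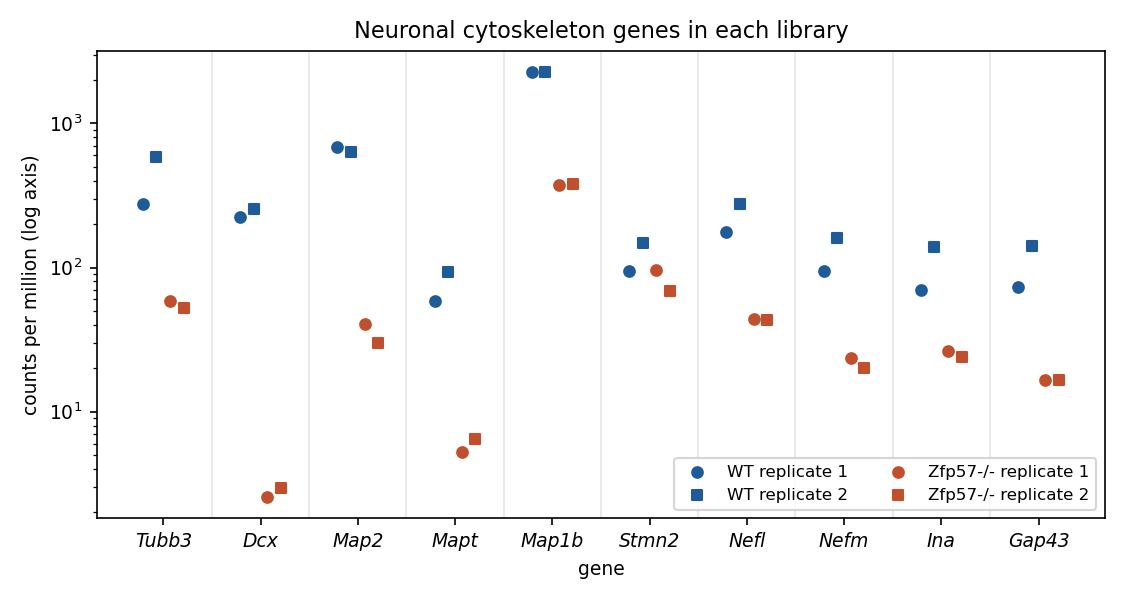
Level of each of the 10 genes in each library, in TMM-scaled CPM on a log axis; blue points are WT and red points *Zfp57*-/- replicates. The red points lie below the blue points for 9 genes and overlap them for *Stmn2*, and the gap is widest for *Dcx*.

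*Tubb3* (chr8:123411424-123422015), the beta-tubulin of neurons, was present at 276 and 580 CPM in WT cells and at 58.5 and 52.0 CPM in *Zfp57*-/- cells. The groups did not overlap, although the WT replicates differed from each other 2.10-fold. The log2 fold change was -2.95 (SE 0.33, adjusted p = 0.000162), a level 7.75-fold lower. Without WT replicate 2, which had the higher level, the log2 fold change was -2.33.

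The microtubule-associated proteins included the strongest changes. *Dcx* (chrX:143855842-143933311), which encodes doublecortin, had 222 and 254 CPM in WT and 2.58 and 2.96 CPM in *Zfp57*-/- cells, the latter resting on 24 and 29 counts. It was 85.5-fold lower (log2 fold change -6.42, SE 0.26, adjusted p = 1.71e-06). *Map2* (chr1:66175273-66442583), which encodes the dendritic protein, had 686 and 633 CPM in WT and 40.4 and 29.7 CPM in *Zfp57*-/- cells, 18.8-fold lower (log2 fold change -4.23, SE 0.24, adjusted p = 4.04e-06). Replicates of *Dcx* and *Map2* were close to each other in both genotypes when set against these differences.

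*Mapt* (chr11:104231390-104332090), which encodes tau, had 58.2 and 93.3 CPM in WT and 5.26 and 6.44 CPM in *Zfp57*-/- cells. Its level was 12.9-fold lower (log2 fold change -3.69, SE 0.29, adjusted p = 2.00e-05). *Map1b* (chr13:99421446-99516540), expressed early in growing axons, had the highest CPM of the 10 genes, with 2271 and 2262 CPM in WT and 373 and 380 CPM in *Zfp57*-/- cells. It was the most even of the 10 genes between the WT replicates and was 6.02-fold lower (log2 fold change -2.59, SE 0.20, adjusted p = 1.70e-05). Of the 10 genes, these microtubule-associated proteins thus covered both the largest loss, of *Dcx*, and a loss about as large as that of the median gene, of *Map1b*.

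*Stmn2* (chr3:8509360-8561606), the neuronal stathmin, behaved differently. It had 93.9 and 149 CPM in WT and 96.8 and 68.6 CPM in *Zfp57*-/- cells, so that the groups overlapped. The log2 fold change was -0.56 (95% interval -1.14 to 0.03, adjusted p = 0.144). The size of the change depended on the WT replicate. Without WT replicate 1 the log2 fold change was -0.88, and without WT replicate 2 it was -0.19. Either fit takes its spread from the *Zfp57*-/- replicates, which were closer to each other than those of WT, so no p is given.

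The neurofilament genes *Nefl* (chr14:68083863-68089095), *Nefm* (chr14:68082590-68124846) and *Ina* (chr19:47014698-47025327) encode the light chain, the medium chain and alpha-internexin. *Nefl* had 176 and 275 CPM in WT and 43.8 and 43.4 CPM in *Zfp57*-/- cells (log2 fold change -2.37, SE 0.25, adjusted p = 0.000111). *Nefm* had 93.9 and 160 CPM in WT and 23.5 and 20.03 CPM in *Zfp57*-/- cells (log2 fold change -2.54, SE 0.27, adjusted p = 0.00014). *Ina* had 69.6 and 140 CPM in WT and 26.4 and 23.9 CPM in *Zfp57*-/- cells (log2 fold change -2.06, SE 0.31, adjusted p = 0.000979), and -1.47 without WT replicate 2. The 3 genes were 5.17-fold, 5.83-fold and 4.16-fold lower in *Zfp57*-/- cells. In the gene models used, *Nefl* and *Nefm* share 1108 exonic bases on opposite strands and *Ina* shares 456 with *Nt5c2*, also on the opposite strand, and the authors counted by strand.

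*Gap43* (chr16:42248442-42340651), the growth cone protein, had 73.8 and 141 CPM in WT and 16.6 and 16.5 CPM in *Zfp57*-/- cells. It was 6.496-fold lower (log2 fold change -2.70, SE 0.30, adjusted p = 0.000171).

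Divided by exon length, *Tubb3* was the most abundant member in WT cells at 229 ± 115 CPM per kilobase (SD, n = 2), followed by *Map1b* at 143 ± 0.39, *Gap43* at 70.5 ± 31.2 and *Nefl* at 66.7 ± 20.8 CPM per kilobase. *Map2* had 40.1 ± 2.29, *Ina* 32.3 ± 15.3, *Nefm* 21.9 ± 8.08, *Stmn2* 21.7 ± 6.96, *Dcx* 18.8 ± 1.79 and *Mapt* 10.1 ± 3.29 CPM per kilobase. Neighbours from *Gap43* to *Nefl* and from *Map2* down to *Dcx* overlapped in their replicates. In *Zfp57*-/- cells the order was *Tubb3* (29.6 ± 2.45), *Map1b* (23.8 ± 0.35), *Stmn2* (14.8 ± 3.56), *Nefl* (12.9 ± 0.074), *Gap43* (10.9 ± 0.084), *Ina* (7.77 ± 0.54), *Nefm* (3.77 ± 0.42), *Map2* (2.13 ± 0.46), *Mapt* (0.777 ± 0.11) and *Dcx* (0.219 ± 0.022), again in CPM per kilobase. *Stmn2* and *Nefl* overlapped in this order, *Stmn2* had moved up from the eighth to the third place, and *Gap43*, *Map2* and *Dcx* had moved down.

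Within the summed counts per kilobase of the 10 genes, *Stmn2* made up 3.27% and 3.34% in WT and 15.5% and 12.1% in *Zfp57*-/- cells. *Dcx* made up 3.42% and 2.53% in WT and 0.18% and 0.23% in *Zfp57*-/- cells, and *Map2* 8.13% and 4.84% against 2.20% and 1.78%. *Nefm* was even, with 3.16% and 3.48% against 3.64% and 3.41%. These shares do not depend on how the libraries are scaled to each other, but the shares of a group of genes are tied to each other. With 2 libraries per genotype, the smallest p of an exact two-sided permutation test of such a share is 1 in 3, so no test is given.

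The neuron markers fell as well. Of 10 neuron markers that are not cytoskeletal (such as *Elavl3*, *Elavl4* and *Snap25*), 9 were lower and 0 higher, and their summed level was 413 and 425 CPM in WT against 49.7 and 41.2 CPM in *Zfp57*-/- cells. Set against the summed counts of these markers, *Tubb3* had 0.67 and 1.37 counts per marker count in WT and 1.18 and 1.26 in *Zfp57*-/- cells, so that the groups overlapped. *Mapt* overlapped too, with 0.141 and 0.220 against 0.106 and 0.156. *Dcx* was lower by this measure, at 0.539 and 0.599 against 0.0518 and 0.0720, as was *Map2*, at 1.66 and 1.49 against 0.812 and 0.722. The other 6 genes were higher by this measure with no overlap. *Stmn2* was so by the widest margin, at 0.227 and 0.351 against 1.95 and 1.67, and *Map1b* had 5.50 and 5.33 against 7.50 and 9.23. *Nefl* had 0.426 and 0.648 against 0.881 and 1.05, *Nefm* 0.227 and 0.376 against 0.473 and 0.486, and *Ina* 0.169 and 0.329 against 0.531 and 0.581. *Gap43*, at 0.179 and 0.332 against 0.335 and 0.3995, came closest to overlapping. A gene that fell less than the summed markers is higher by this measure, so the ratios restate the fold changes. The share of all genes that were higher by it was not counted. The marker lists were not tested as a scale, and these ratios are descriptions.

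Markers of other cell types were also compared, beside the 14.6% of all genes tested that were lower and the 13% that were higher. Pluripotent cell markers were higher in 10 of 10 cases, with a summed level of 4.58 and 8.40 CPM in WT against 1616 and 1413 CPM in *Zfp57*-/- cells, and *Nanog* was at 0 in both WT libraries. *Pou5f1* had 0.124 and 0.573 CPM in WT and 295 and 234 CPM in *Zfp57*-/- cells. Neural progenitor markers were lower in 7 of 8 cases (784 and 741 against 295 and 310 CPM), with *Pax6* at 28.4 and 27.7 against 3.97 and 2.86 CPM and *Sox1* at 36.8 and 44.7 against 7.30 and 3.27 CPM. Markers of peripheral neurons and neural crest, which can also express these genes, were lower in 5 of 6 cases and higher in 1 (121 and 175 against 17.8 and 22.4 CPM), with *Isl1* at 12.8 and 14.7 against 3.54 and 3.78 CPM.

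Among mesodermal and endothelial markers, 3 of 6 tested were higher and 1 was lower (130 and 222 against 617 and 625 CPM), with *T* at 14.5 and 32.9 against 106 and 124 CPM and *Mesp1* at 0 in WT and at most 1 count in *Zfp57*-/- cells. Of 7 endodermal markers, 1 was higher (367 and 558 against 580 and 780 CPM), and *Foxa2* (adjusted p = 0.146) and *Sox17* (adjusted p = 0.182) did not pass. Astrocyte markers went both ways, with 2 of 6 lower and 1 higher (321 and 258 against 219 and 255 CPM), *Aqp4* at 1.24 and 1.05 against 0.107 and 0.102 CPM and *Aldh1l1* at 1.98 and 1.81 against 7.30 and 9.30 CPM. So did oligodendrocyte lineage markers, with 2 of 7 lower and 2 higher (425 and 371 against 219 and 330 CPM), *Olig1* at 1.73 and 1.72 against 7.41 and 8.38 CPM and *Olig2* at 2.23 and 1.81 against 6.33 and 6.85 CPM. The part of these other cell types in the levels of the cytoskeleton genes was not tested. The endodermal, astrocyte and oligodendrocyte lineage counts rest on few genes, and 14.6% of all genes tested were lower and 13% higher.

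The wider cytoskeleton was read from lists of 132 companion genes, of which 130 were tested. Of these, 58 were lower and 20 higher, beside the 14.6% and 13% of all genes tested, and 52 did not pass. The same shares stand beside the family counts below. In families with 1 or 2 higher genes, that count is near or under the share of all genes. The median log2 fold change over the companion genes was -0.64. Direction differed by family, with growth cone proteins and stathmins mostly lower, tubulins split, and intermediate filaments higher in 6 of 12 cases and lower in 1.

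**Figure D2:**
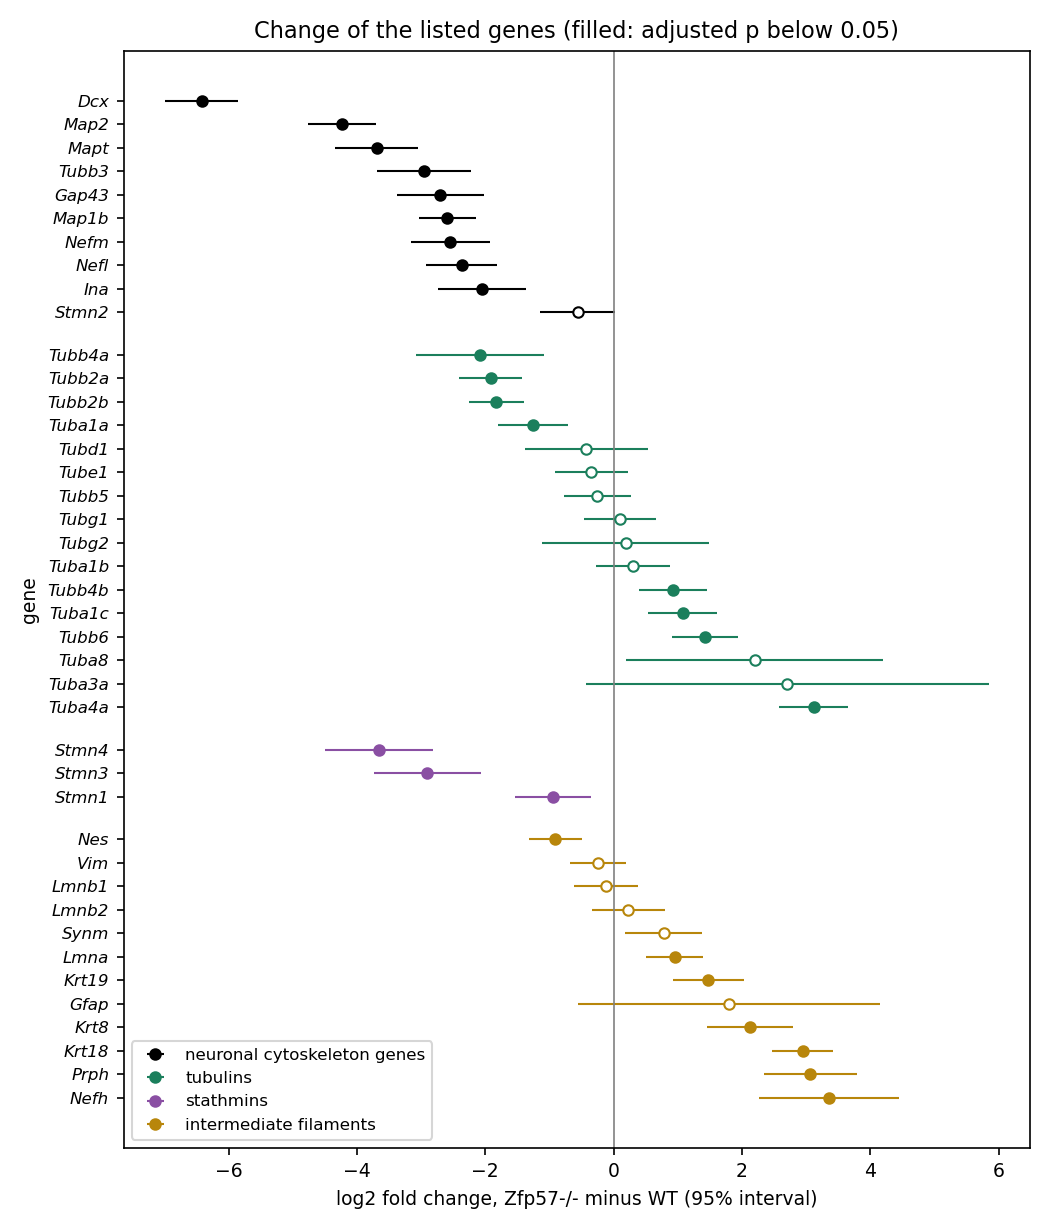
Log2 fold change of *Zfp57*-/- against WT cells with its 95% interval, for the 10 neuronal cytoskeleton genes and the tested genes of 3 companion families; filled points passed an adjusted p of 0.05. The members lie between -6.42 and -0.56, while tubulins and intermediate filaments lie on both sides of 0.

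Of 16 tubulins tested, 4 were lower, 4 were higher and 8 did not pass. The lower genes were *Tubb2b* (462 and 538 against 139 and 143 CPM, log2 fold change -1.83), *Tubb2a* (-1.92), *Tubb4a* (-2.09) and *Tuba1a* (-1.26). *Tuba1a* had 1020 and 1617 against 556 and 548 CPM. The higher genes were *Tuba4a* (11.5 and 17.0 against 129 and 120 CPM, log2 fold change 3.12), *Tubb6* (1.42), *Tuba1c* (1.07) and *Tubb4b* (0.92). *Actb* had 1812 and 3596 CPM in WT and 3764 and 4013 CPM in *Zfp57*-/- cells. It thus differed 1.98-fold between the WT replicates, which makes it an uneven scale. With libraries scaled on *Actb* counts, the median gene had a log2 fold change of -0.68. *Tuba4a* was past the threshold on that scale too, and *Tubb6* (0.83, adjusted p = 0.275), *Tuba1c* (0.50, adjusted p = 0.536) and *Tubb4b* (0.35, adjusted p = 0.709) did not. *Tubb4b* also did not pass without *Zfp57*-/- replicate 1 (adjusted p = 0.0771) or replicate 2 (adjusted p = 0.0904), and *Tubb4a* not without *Zfp57*-/- replicate 1 (adjusted p = 0.0940).

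*Tubb5*, the most abundant beta-tubulin here, had 1682 and 2521 against 1738 and 1792 CPM (log2 fold change -0.25, adjusted p = 0.457). *Tuba1b* (0.30), *Tubg1* (0.10), *Tubg2* (0.19), *Tubd1* (-0.43) and *Tube1* (-0.35) did not pass, nor did the scarce *Tuba3a* (2.70, at most 4 counts in any library) and *Tuba8* (2.19, at most 17 counts). *Tuba3b* had 0 counts and *Tubb1* at most 5, and neither was tested. Tubulin genes are close in sequence and only unique alignments were counted, so the split of reads between them is uncertain.

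Within the beta-tubulins, counts per kilobase give shares that need no scale between libraries. *Tubb3* made up 14.7% and 20.4% in WT and 3.59% and 3.06% in *Zfp57*-/- cells, a difference of -14.3 percentage points between the means. *Tubb2b* went from 20.1% and 15.4% to 6.93% and 6.85%, and *Tubb2a* from 4.71% and 3.99% to 1.504% and 1.70%. In their place *Tubb4b* went from 7.74% and 8.09% to 21.5% and 21.2%, *Tubb5* from 50.4% and 49.9% to 59.8% and 59.3%, and *Tubb6* from 1.94% and 1.85% to 6.56% and 7.76%. The shares of these 6 genes are tied to each other and no test is given.

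**Figure D3:**
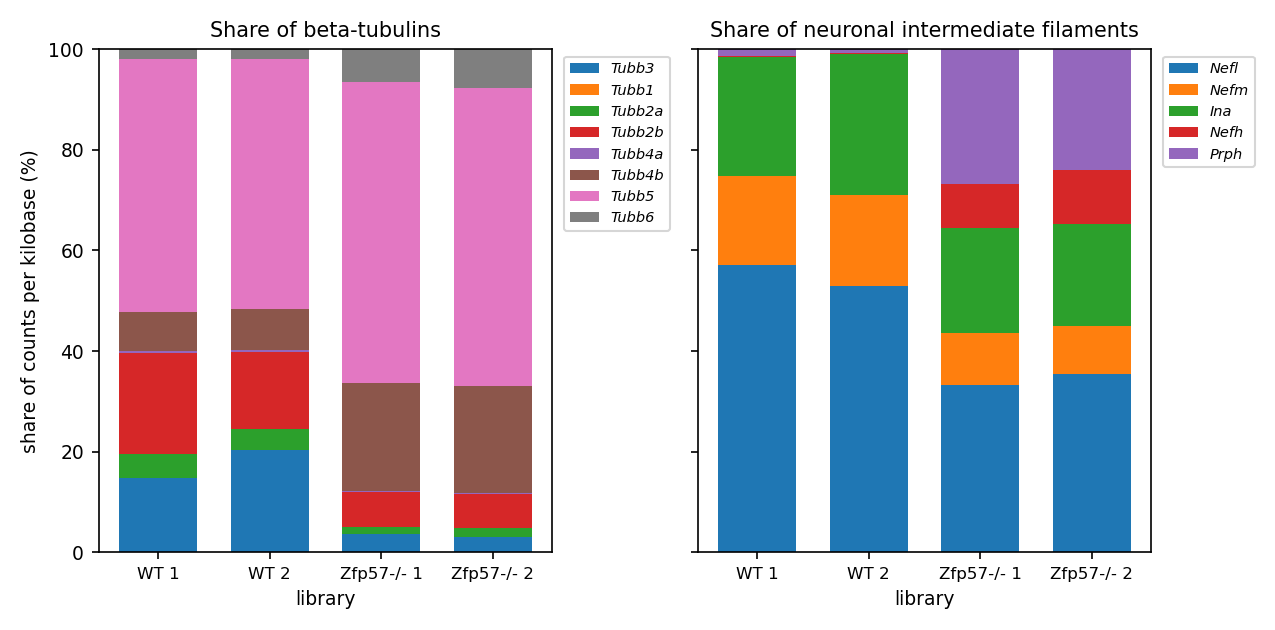
Share of each gene in the counts per kilobase of the beta-tubulins (left) and of the neuronal intermediate filaments (right), in percent, as stacked bars for each library. *Tubb3* and *Tubb2b* take up less of the *Zfp57*-/- bars, and *Prph* and *Nefh* appear there.

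The neuronal intermediate filaments separated from each other. *Nefh*, the heavy neurofilament chain of mature axons, had 5 and 22 counts in WT and 125 and 153 counts in *Zfp57*-/- cells, or 0.619 and 2.10 against 13.4 and 15.6 CPM (log2 fold change 3.35, SE 0.49, adjusted p = 0.000828). *Prph*, which encodes peripherin, a filament best known from peripheral neurons, had 2.48 and 2.10 against 20.9 and 17.4 CPM (log2 fold change 3.06, SE 0.33, adjusted p = 0.000125). Both were past the threshold in each scaling tried and with any library left out, *Nefh* with log2 fold changes of 2.76 without WT replicate 1 and 4.52 without WT replicate 2, and both moved against *Nefl*, *Nefm* and *Ina*. Of the summed counts per kilobase of these 5 genes, *Nefl* made up 57.05% and 53.0% in WT and 33.2% and 35.4% in *Zfp57*-/- cells, *Prph* 1.36% and 0.68% against 26.8% and 23.9%, and *Nefh* 0.17% and 0.34% against 8.61% and 10.8%.

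Among the 12 companion intermediate filaments, *Nes*, which encodes the progenitor filament nestin, was lower (356 and 366 against 190 and 195 CPM, log2 fold change -0.91, adjusted p = 0.00524), although not without *Zfp57*-/- replicate 1 (adjusted p = 0.145) or replicate 2 (adjusted p = 0.120). The keratins of simple epithelia were higher, with *Krt8* at 102 and 200 against 593 and 724 CPM (log2 fold change 2.13), *Krt18* at 60.7 and 73.1 against 480 and 550 CPM (2.94) and *Krt19* at 13.6 and 15.2 against 33.3 and 47.0 CPM (1.48). *Lmna*, the A-type lamin, was also higher (0.95), although not without *Zfp57*-/- replicate 2 (adjusted p = 0.0937), and with the *Actb* scale *Lmna* (0.31) and *Krt19* (0.82) did not pass. *Vim* (-0.25), *Lmnb1* (-0.12), *Lmnb2* (0.23), *Synm* (0.78) and *Gfap* (1.80, at most 14 counts in any library) did not pass.

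The other stathmins were lower in 3 of 3 cases. *Stmn1* had 266 and 475 against 183 and 203 CPM (log2 fold change -0.94, adjusted p = 0.0261), *Stmn3* 24.8 and 46.9 against 3.65 and 5.93 CPM (-2.90, adjusted p = 0.000394) and *Stmn4* 32.4 and 24.9 against 3.11 and 1.43 CPM (-3.66, adjusted p = 0.0001). *Stmn1* did not pass without *Zfp57*-/- replicate 1 (adjusted p = 0.160) or replicate 2 (adjusted p = 0.0815), and *Stmn4* had -4.30 without *Zfp57*-/- replicate 1. Within the stathmins per kilobase, *Stmn2* made up 8.65% and 8.11% in WT and 14.7% and 9.88% in *Zfp57*-/- cells.

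Of 20 growth cone proteins, 16 were lower and 1 was higher, with a median log2 fold change of -2.25. The smallest adjusted p were those of *Fez1* (51.9 and 64.2 against 5.90 and 6.13 CPM), *Cdk5r1*, the p35 activator of CDK5 (37.3 and 48.3 against 2.25 and 3.17 CPM), and *Dpysl4*, a collapsin response mediator (71.6 and 98.9 against 9.23 and 7.16 CPM). *Cap2*, an actin-binding protein, was the gene that was higher (0.743 and 0.859 against 4.72 and 4.60 CPM), but not without *Zfp57*-/- replicate 1 (adjusted p = 0.0718), without replicate 2 (adjusted p = 0.0642) or with the *Actb* scale (adjusted p = 0.211).

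Of 20 further microtubule-associated proteins, 8 were lower and 4 higher, with a median of -0.60. *Map6*, which makes microtubules stable to cold, had 108 and 102 against 11.1 and 11.3 CPM, *Dclk1*, a relative of doublecortin, 98.9 and 112 against 11.4 and 14.003 CPM, and *Map1a*, the relative of *Map1b* found in mature neurons, 108 and 106 against 40.6 and 36.4 CPM. Those higher included *Map7* (29.8 and 31.9 against 46.4 and 54.5 CPM), *Map7d3* (1.73 and 0.477 against 5.15 and 4.50 CPM) and *Mtus1* (21.1 and 24.4 against 38.9 and 34.5 CPM). None of these 3 passed with the *Actb* scale or with either *Zfp57*-/- replicate left out (adjusted p from 0.0927 to 0.373 without a replicate), and *Map7d3*, with few counts, had a log2 fold change of 3.28 without WT replicate 1 and 1.47 without WT replicate 2.

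Plus-end and severing proteins were lower in 11 of 19 cases and higher in 1, led by *Apc2* (132 and 114 against 10.8 and 12.98 CPM), *Nav3* (49.5 and 46.6 against 10.7 and 14.6 CPM) and the katanin-like *Katnal1* (38.5 and 35.9 against 12.0 and 11.8 CPM), while *Fignl1* was higher (38.8 and 48.0 against 77.7 and 75.2 CPM). Tubulin-modifying enzymes were lower in 5 of 14 cases and higher in 2. *Ttll7*, a polyglutamylase (25.3 and 26.3 against 2.68 and 4.40 CPM), *Vash1*, a detyrosinating enzyme (29.6 and 39.7 against 7.30 and 7.87 CPM), and *Atat1*, the tubulin acetyltransferase (39.6 and 47.5 against 17.1 and 16.1 CPM), were lower. *Hdac6*, a tubulin deacetylase (70.3 and 90.4 against 124 and 134 CPM), and *Ttll4* (177 and 160 against 257 and 252 CPM) were higher. *Fignl1*, *Hdac6* and *Ttll4* did not pass with the *Actb* scale, where the fold change of *Ttll4* turned to -0.12, or with either *Zfp57*-/- replicate left out (adjusted p from 0.114 to 0.357).

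Axonal spectrins and ankyrins were lower in 6 of 13 cases and higher in 1. *Add2* had 62.0 and 81.2 against 7.84 and 6.44 CPM and *Ank3*, the ankyrin of the axon initial segment, 354 and 233 against 60.1 and 60.3 CPM, while *Sptbn4* was higher (4.21 and 2.48 against 12.6 and 12.1 CPM). Tau kinases and linker proteins were lower in 4 of 13 cases and higher in 1. The tau tubulin kinases *Ttbk1* (20.7 and 23.96 against 2.58 and 4.09 CPM) and *Ttbk2* (78.6 and 69.9 against 28.8 and 26.3 CPM) and the kinase *Mark1* (64.8 and 56.8 against 23.8 and 23.1 CPM) were lower, and the linker *Dst* was higher (709 and 547 against 1173 and 1114 CPM). *Sptbn4* did not pass with the *Actb* scale (adjusted p = 0.321), and *Dst* did not pass there or without either *Zfp57*-/- replicate (adjusted p = 0.155 and 0.105).

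The alleles were then compared. The authors split the reads at strain polymorphisms into JF1 (maternal) and B6 (paternal) reads, 2837013 to 3826604 per library in all. *Map2* and *Nefl* had 0 allelic reads and *Nefm* had 1, despite their bulk counts, so their alleles could not be followed. The 15 measured genes nearest to *Map2* had a median JF1 share of 0.488 in WT and 0.634 in *Zfp57*-/- cells, and chromosome 1 as a whole 0.490 and 0.620. *Dcx* is X-linked in a male line and gave JF1 reads almost throughout (0.998 in WT and 1.00 in *Zfp57*-/- cells).

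The genotype-by-allele contrast, the change of the JF1 allele minus that of the B6 allele, was tested for the other 6 genes and passed for 2 of them, *Tubb3* and *Ina*. Over all 10977 genes tested it passed for 14.5%. Both alleles were lower for 4 of the 6 genes (*Tubb3*, *Mapt*, *Map1b* and *Gap43*), against 11.6% of all genes, but for just 2 of the 6 when *Zfp57*-/- replicate 2 was left out.

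**Figure D4:**
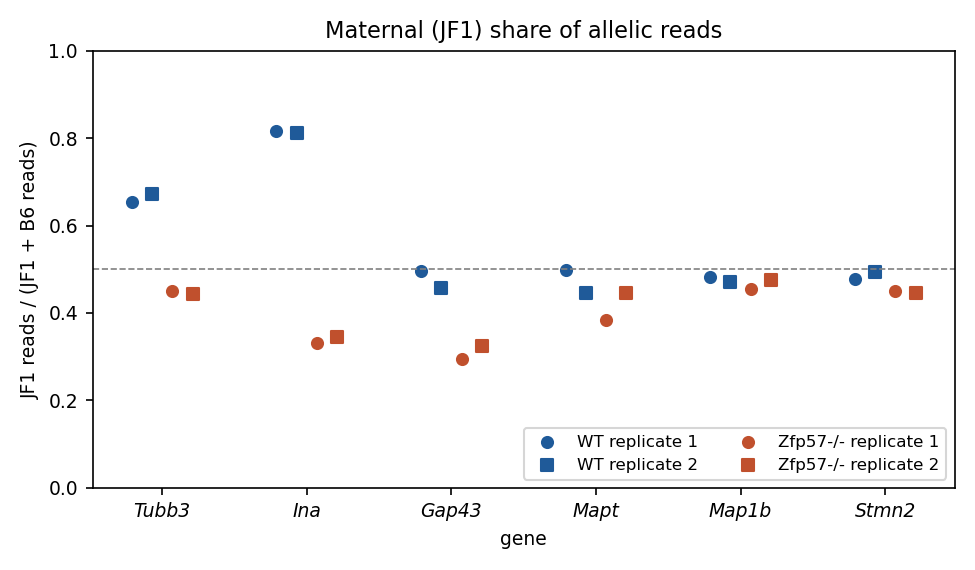
JF1 reads as a fraction of JF1 plus B6 reads for the 6 autosomal genes with allelic reads, in each library; the dashed line is 0.5. The WT points of *Tubb3* and *Ina* lie above 0.6, and the *Zfp57*-/- points of all 6 genes lie below 0.5.

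*Ina* showed the larger shift. It had 223 JF1 and 50 B6 reads in WT replicate 1 and 520 and 120 in replicate 2, a JF1 share of 0.815 ± 0.0031 (SD, n = 2). In *Zfp57*-/- cells it had 49 and 99 reads in replicate 1 and 48 and 91 in replicate 2, a share of 0.338 ± 0.010. The contrast was -3.10 (log2, SE 0.24, adjusted p = 1.13e-19). The JF1 allele fell by 2.93 on the log2 scale (SE 0.35, adjusted p = 0.000154), while the B6 allele was 0.16 higher (SE 0.34, adjusted p = 0.757). The 15 nearest genes had median JF1 shares of 0.546 and 0.498.

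*Tubb3* had 562 JF1 and 296 B6 reads in WT replicate 1 and 1565 and 763 in replicate 2, a JF1 share of 0.664 ± 0.012. In *Zfp57*-/- cells it had 110 and 134 reads in replicate 1 and 89 and 112 in replicate 2, a share of 0.447 ± 0.0057. The contrast was -1.30 (SE 0.17, adjusted p = 4.40e-10). Both alleles were lower in *Zfp57*-/- cells, the JF1 allele by a log2 fold change of -3.39 (adjusted p = 0.000182) and the B6 allele by -2.09 (adjusted p = 0.00213). Its 15 nearest genes had shares of 0.490 and 0.489.

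The contrast did not pass for *Gap43*, with shares of 0.477 ± 0.028 in WT and 0.310 ± 0.021 in *Zfp57*-/- cells (-0.99, SE 0.39, adjusted p = 0.0811) and only 84 allelic reads in *Zfp57*-/- cells. It did not pass for *Mapt* either (0.472 and 0.416, contrast -0.28, SE 0.35, adjusted p = 0.742), which had 86 reads there. *Map1b*, with 22209 and 3769 reads, had shares of 0.477 and 0.465 (-0.07, SE 0.075, adjusted p = 0.704), the most precise of the 6. *Stmn2* had shares of 0.485 and 0.448 (-0.23, SE 0.19, adjusted p = 0.576), and neither of its alleles changed past the threshold (JF1 -0.79, adjusted p = 0.0951; B6 -0.56, adjusted p = 0.215).

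Of the companion genes, alleles are given for *Tubb5* and *Stmn1* only, which gave reads almost entirely of a single parent in WT cells. *Tubb5* had 2928 JF1 and 4 B6 reads in WT replicate 1 and 5530 and 1 in replicate 2, against 1637 and 1997 in *Zfp57*-/- replicate 1 and 1940 and 2100 in replicate 2, a contrast of -10.9 (adjusted p = 9.51e-69), while its bulk level did not pass. *Stmn1* had 3 JF1 and 252 B6 reads in WT replicate 1, and its JF1 share was 0.0104 in WT and 0.00427 in *Zfp57*-/- cells. The 15 nearest genes had median JF1 shares of 0.556 in WT and 0.467 in *Zfp57*-/- cells for *Tubb5*, and of 0.506 and 0.497 for *Stmn1*. *Tubb5* and *Stmn1* were named for this after their values were seen.

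The members also differed between the WT replicates by gene length. All 10 genes had a higher ratio of WT replicate 2 to WT replicate 1 than the median of genes in their length class, and 8 were higher in replicate 2. The median ratio over all genes fell from 1.35 for exon lengths up to 1000 bases (391 genes) to 0.753 for those above 16000 bases (278 genes). In *Zfp57*-/- cells the ratio of the replicates was between 0.950 and 1.02 in every length class. Over the 10 genes, exon length and the WT ratio had a Spearman rho of -0.855, and exon length and the *Zfp57*-/- ratio one of 0.139, as descriptions over genes of the same libraries.

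**Figure D5:**
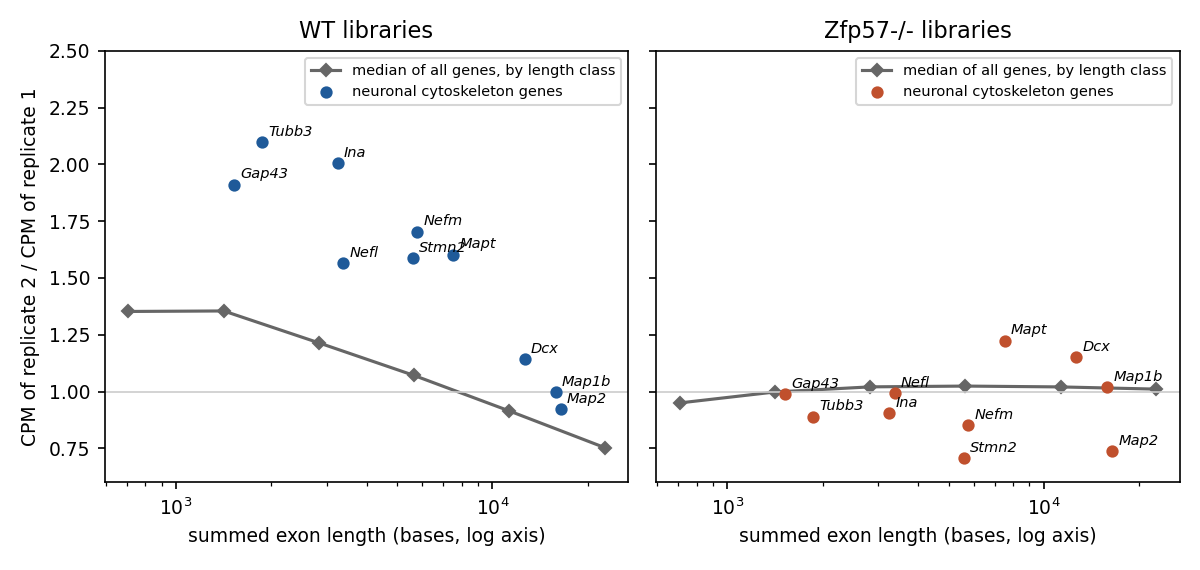
Level of each of the 10 genes in replicate 2 over that in replicate 1 (CPM ratio) against exon length on a log axis, for WT (left) and *Zfp57*-/- libraries (right); the grey line joins the medians of all genes by length class. Short members such as *Tubb3* (2.10) and *Gap43* (1.91) lie high in WT and long ones such as *Map2* (0.922) lie low, while the *Zfp57*-/- points show no such slope.

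The fold change between genotypes ran with length too, from a median log2 fold change of 0.38 in the shortest class to -0.49 in the longest. With the length trend of each library removed, 9 members were still lower, with *Dcx* at -6.14, *Map2* at -3.81, *Map1b* at -2.19, *Tubb3* at -3.11 and *Stmn2* at -0.51.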

How the data were processed

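RNA-seq of day 12 JB1 cells was taken from the tables deposited by the authors, for 2 WT and 2 *Zfp57*-/- cultures. Reads were trimmed (Trimmomatic 0.36) and aligned to GRCm38 (STAR 2.5.4a) by the authors, who kept unique alignments and gave the deposited raw counts of fragments per gene of GENCODE vM20 by strand with featureCounts (Subread 1.6.0). For the allelic table, the authors aligned to a genome masked at strain SNPs, split the reads with SNPsplit and gave counts per gene and allele. Neither table was normalized. The exon length deposited with the counts was used for values per kilobase.

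Symbols were attached to 98.42% of genes by Ensembl ID. With R 4.3.3 and edgeR 4.0.16, genes with more than 8 counts over the 4 libraries were compared by the robust quasi-likelihood test with TMM scaling, a Benjamini-Hochberg adjusted p of 0.05 being the threshold. CPM are TMM-scaled counts per 1000000. For the alleles, autosomal genes were kept where both WT replicates had 10 or more normalized allelic counts, and a fit over the 8 allele columns, with libraries as terms and the allele effect nested in genotype, gave the contrast. Each allele was also compared between genotypes using the bulk library sizes. Allelic shares are means over replicates. P-values measure the spread between 2 cultures of a single line per genotype.

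The authors used DESeq2, which is an alternative here (DESeq2 1.42.0), with other scalings, filters, a replicate block, a length correction, a stricter threshold and each library left out. Same-numbered replicates correlated in their deviations at 0.156 over 10480 genes, the labels give no pairing, and the main comparison has no block. The scripts were tested on simulated data. The members, companion lists and markers were chosen with earlier results of these data known. Named are all members, all genes of the tubulin, stathmin and intermediate filament lists, at most 3 genes in each direction with the smallest adjusted p from each other list, and the first 2 markers of each marker list; *Snap25* was added as an example. Some genes that this rule selects are not reported here. Motif searches and figures used Python 3.11.15 with pandas 2.3.3 and matplotlib 3.10.9.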

Additional observations from a re-analysis of the deposited data

Results flagged for a closer look

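Of the members tested for it, 2 had alleles that responded differently to the genotype, as a contrast of the JF1 change minus the B6 change. That contrast passed for 14.5% of all 10977 genes tested. It was -1.30 for *Tubb3* and -3.10 for *Ina* on the log2 scale, each called in every alternative run for it (another read minimum, DESeq2's test, the replicate block and each library left out). Over those alternatives the adjusted p was between 5.41e-13 and 6.27e-06 for *Tubb3* and between 1.48e-33 and 4.23e-13 for *Ina*.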

How the results depend on the processing

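Of 120 log2 fold changes of members under the alternatives, 117 kept their direction and their side of the threshold, 0 reversed and 0 fell below the threshold. The other 3 were of *Stmn2*. It passed with no filter on low counts (-0.56, adjusted p = 0.0483) and with the replicate block (-0.54, adjusted p = 0.0377). It also passed without WT replicate 1 (-0.88), in a fit whose spread comes from the *Zfp57*-/- replicates alone. Members lower numbered 9 or 10 in each alternative, and 10 with the replicate block, which called 6984 genes in all against 5522; it changed no other member's call. Companion genes higher, 20 as reported, numbered 5 with the *Actb* scale, 11 at an adjusted p of 0.01, and 9 to 28 with a library left out (10 without *Zfp57*-/- replicate 1, 9 without replicate 2), the lone sample being assumed to vary like the other genotype. Of the genes called higher, *Map1s* and *Ttll4* turned with the *Actb* scale, to -0.04 and -0.12. Companion genes lower, 58 as reported, numbered 43 to 78 with a library left out. Members with both alleles lower numbered 2 to 5 with a library left out. The difference in the *Tubb3* share was -10.0 percentage points from counts not divided by length and -8.36 with alpha-tubulins in the denominator, and between -17.1 and -11.4 with a library left out. The depth limits the allelic shares of *Gap43* and *Mapt* in *Zfp57*-/- cells most, and with 2 cultures per genotype the spread is poorly known.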
